A study of Rattus norvegicus with 6 samples.

Results

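The miR-148 and miR-152 family is a set of miRNAs from 3 separate genes, Mir148a, Mir148b and Mir152, whose 3p arms carry the same seed. Its members were taken by name from the table of miRNA sequences, and 5 of the 6 names (rno-miR-148a-3p, rno-miR-148a-5p, rno-miR-148b-3p, rno-miR-148b-5p and rno-miR-152-3p) were listed among 867 sequences in all. The remaining name, rno-miR-152-5p, is the other arm of miR-152. It had no row and was not analysed here.

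The small RNA came from circulating exosomes, which are vesicles of endosomal origin that cells release into the blood, isolated by ultracentrifugation from serum of male Sprague-Dawley rats aged 6 to 8 weeks on a normal diet. The NXT-Exo group, with 5 libraries, had received Naoxintong Capsule (NXT), a preparation of several traditional Chinese medicines, by gavage at 1000 mg/kg/d. The Ctl-Exo group, with a single library numbered 5, had received saline by gavage at 5 mL/kg/d, and the comparison asks whether oral NXT changed the miRNA content of the vesicles. Further columns of the same table are headed Ctl-Exo 1 to 4, but the sample labels used here name no such samples, so these columns were not analysed here. Every comparison therefore uses 1 control library, by this choice. The titles give 7 days of gavage for every library, while a treatment field counts up from 7 to 11 days over NXT-Exo 1 to 5 and gives 11 days for Ctl-Exo 5. The labels name 10 rats per group but do not say whether a library holds vesicles of 1 rat or of a pool, so the tests measure only the spread between these libraries.

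A miRNA is cut from a hairpin precursor with 2 arms, of which usually one is kept by the Argonaute protein and the other is degraded. It recognises its targets mainly through its seed, bases 2 to 8, so members with the same seed are expected to share many targets. The 3p miRNAs of this family are known for repressing the DNA methyltransferase Dnmt1, and miR-148a-3p for repressing the low-density lipoprotein receptor and the cholesterol exporter ABCA1 in liver, where it is abundant. The genes of the family lie on separate chromosomes. In the RefSeq gene list of the rat assembly GRCr8, Mir148b overlaps Copz1 and Mir152 overlaps Copz2, a pair of genes for paralogous subunits of the coatomer coat of transport vesicles, whereas no other listed gene overlaps Mir148a.

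The 3p members are printed first, because they hold nearly all reads of the family. They are given 5′ to 3′ as DNA letters, as listed by the authors, with the seed in capitals.
rno-miR-148a-3p: tCAGTGCActacagaactttg
rno-miR-152-3p: tCAGTGCAtgacagaacttgg
rno-miR-148b-3p: tCAGTGCAtcacagaactttgt
All of them were identical to the mature sequences in RefSeq for GRCr8, which places miR-148a-3p at chr4:81664447-81664467 on the minus strand, miR-152-3p at chr10:82329435-82329455 on the plus strand and miR-148b-3p at chr7:136299930-136299951 on the plus strand. These positions are on GRCr8 and not on Rnor_6.0, the build that the submitters' processing notes name. The 3p members shared their first 8 bases. Counted from the 5′ end and with the base of the first-named miRNA first, miR-148b-3p differed from miR-148a-3p by C9T and T10C, and miR-152-3p differed from miR-148a-3p by C9T, T10G and T20G. Between miR-148b-3p and miR-152-3p the differences were C10G and T20G. With 18 or 19 of 21 compared bases in common, reads with sequencing errors could have been counted for the wrong member, and the mismatch tolerance of the counting is not given in the sources used here.

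The 5p members are the opposite arms, and they too shared their bases 2 to 8.
rno-miR-148a-5p: aAAGTTCTgagacactctgactc
rno-miR-148b-5p: gAAGTTCTgttatacactcagg
Beyond this seed they were less alike than the 3p arms, with 14 of 22 compared bases identical. RefSeq places miR-148a-5p at chr4:81664483-81664505 on the minus strand. The hairpins in RefSeq show how the arms are arranged, with the listed 5p and 3p sequences in capitals and written as RNA.
Mir148a: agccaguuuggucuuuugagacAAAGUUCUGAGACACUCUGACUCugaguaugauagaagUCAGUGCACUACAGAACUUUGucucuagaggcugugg
Mir148b: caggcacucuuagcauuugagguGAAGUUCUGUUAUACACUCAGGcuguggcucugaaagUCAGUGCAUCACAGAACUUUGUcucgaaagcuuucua
Both hairpins are 97 bases long and have 15 bases between the listed arms. Mir148a spans chr4:81664431-81664527 and Mir148b spans chr7:136299870-136299966 on GRCr8. The 5p sequence of miR-148b was found whole in its hairpin.

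The listed counts summed to between 1168686 reads in NXT-Exo 4 and 3781718 reads in NXT-Exo 5, with 1890463 reads in Ctl-Exo 5. Levels are given as CPM, a miRNA's reads divided by the listed reads of its library after adjustment with edgeR's TMM factors and put on a scale that sums to about 1e+06, and 1 read was worth 0.261 to 0.782 CPM. Of all listed reads, the family took 1.64% in Ctl-Exo 5 and 1.51% to 1.98% in NXT-Exo. The red blood cell miRNAs miR-486, miR-451-5p, miR-144-3p and miR-144-5p were all detected, and their levels added up to 210386 CPM in Ctl-Exo 5, inside the NXT-Exo range of 157715 to 260257 CPM. The hepatocyte miRNAs miR-122-5p, miR-122-3p and miR-802-5p added up to 17431 CPM in NXT-Exo 1, 3308 to 6452 CPM in NXT-Exo 2 to 5 and 2203 CPM in Ctl-Exo 5, with miR-802-5p at 0 reads in some libraries.

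miR-148a-3p was the most abundant member and ranked 9th to 13th among all listed sequences in the 6 libraries. It had 17367, 13812, 14734, 14556 and 15526 CPM in NXT-Exo 1 to 5, and 14923 CPM in Ctl-Exo 5. The control library lay inside the NXT-Exo range, with 2 NXT-Exo libraries above it and 3 below. The mean of NXT-Exo was 15199 ± 1357 CPM (SD, n = 5). NXT-Exo 1 was the highest of them, and it was also the library with the highest level of the hepatocyte miRNAs. The same library had the lowest level of the red blood cell miRNAs, with 157715 CPM beside 203948 to 260257 CPM in NXT-Exo 2 to 5. Whether either set has a part in the level of miR-148a-3p was not tested.

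miR-152-3p followed with 1479, 1416, 1511, 1970 and 1692 CPM in NXT-Exo 1 to 5 and 1514 CPM in Ctl-Exo 5. NXT-Exo 4 and NXT-Exo 5 were above the control library and the other NXT-Exo libraries were below it, NXT-Exo 3 by less than the counting error. The mean of NXT-Exo was 1614 ± 224 CPM (SD, n = 5). NXT-Exo 4, the highest, is the library with the fewest reads, but its 2520 reads of miR-152-3p gave a Wilson 95% interval of 1895 to 2048 CPM, which lay above the levels of all other libraries. Such intervals cover counting error only.

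miR-148b-3p had 304, 298, 387, 314 and 314 CPM in NXT-Exo 1 to 5 and 375 CPM in Ctl-Exo 5. The control library was thus above 4 of the 5 NXT-Exo libraries and below NXT-Exo 3. The mean of NXT-Exo was 323 ± 35.9 CPM (SD, n = 5). The Wilson intervals of Ctl-Exo 5 (348 to 404 CPM) and NXT-Exo 3 (362 to 413 CPM) overlapped.

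The 5p arms were far lower. miR-148a-5p had 85.3, 105, 119, 152 and 105 CPM in NXT-Exo 1 to 5, with a mean of 113 ± 24.6 CPM (SD, n = 5), and 103 CPM in Ctl-Exo 5. In 4 of the 5 NXT-Exo libraries it was above the control library, and NXT-Exo 1 was below it. miR-148b-5p was the lowest member, with 22, 32, 24, 12 and 32 reads in NXT-Exo 1 to 5 and 21 reads in Ctl-Exo 5. These reads corresponded to 11.4 CPM in Ctl-Exo 5 and to a mean of 9.10 ± 1.31 CPM (SD, n = 5) over NXT-Exo. All NXT-Exo libraries were below the control library, but each of them lay within its Wilson interval of 7.48 to 17.5 CPM, except NXT-Exo 1 with 7.33 CPM.

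**Figure D1:**
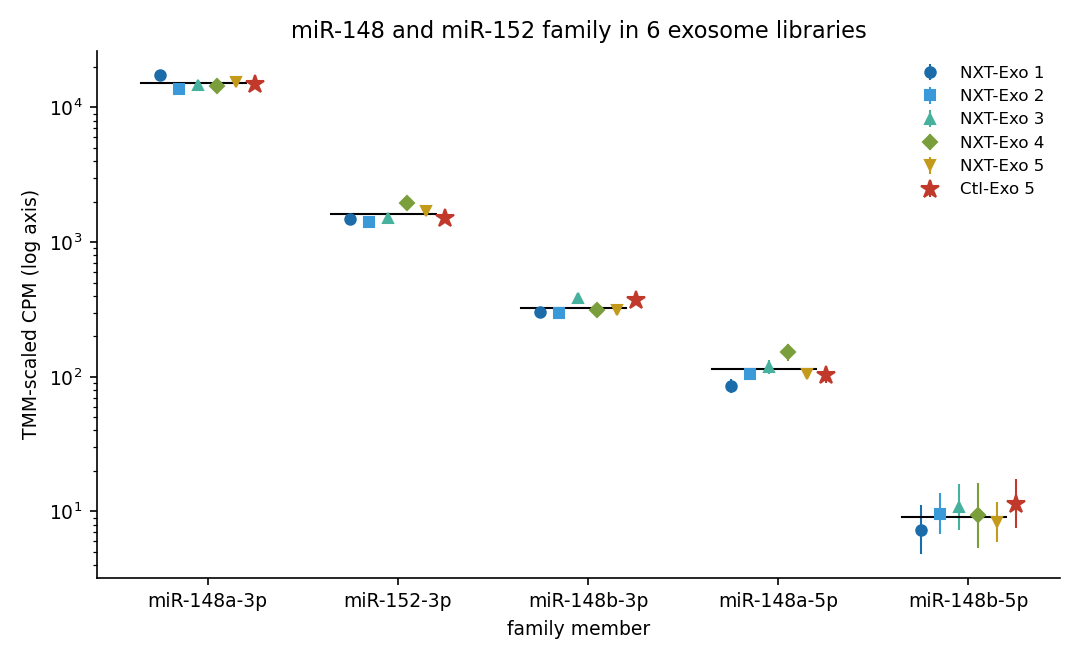
TMM-scaled CPM (log axis) of each family member in the 6 libraries, with Wilson 95% intervals for counting error as bars and the NXT-Exo mean as a horizontal line. The levels run from about 15199 CPM for miR-148a-3p to 9.10 CPM for miR-148b-5p, and the members do not overlap in any library, whereas the control library lies among the NXT-Exo libraries for every member but miR-148b-5p.

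The order of the levels, miR-148a-3p, miR-152-3p, miR-148b-3p, miR-148a-5p and miR-148b-5p, was found in all 6 libraries, and no pair of neighbours in this order overlapped. Each miRNA read is a whole molecule, so these counts need no division by length, although the kit may not capture different sequences equally well. miR-148a-3p was 9.56 ± 1.56 (SD, n = 5) times as high as miR-152-3p in NXT-Exo and 9.86 times in Ctl-Exo 5. miR-152-3p was 5.03 ± 0.87 (SD, n = 5) times as high as miR-148b-3p in NXT-Exo and 4.04 times in Ctl-Exo 5. The closest neighbours were miR-148b-3p and miR-148a-5p, with a ratio of 2.94 ± 0.56 (SD, n = 5) in NXT-Exo and 3.62 in Ctl-Exo 5.

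To compare NXT-Exo with Ctl-Exo 5, all 865 sequences with at least 1 read were fitted together with edgeR's quasi-likelihood test. The spread between libraries came from the 5 NXT-Exo libraries, and the lone control library was assumed to vary like them. edgeR draws the spread of each sequence toward that of all sequences, so its SE and interval do not rest on its own values alone. No family member passed an adjusted p of 0.05, and neither did any other sequence, so that 0% of the 865 were called in either direction. At an unadjusted p under 0.05 there were 46 sequences with edgeR, 33 with DESeq2 and 56 with limma, and no adjusted p passed with DESeq2 or limma. None of the family members was among the 46, and of the sequences with their seeds only miR-152-z, described further on, was.

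The fitted log2 fold change of miR-148a-3p was 0.03 (SE 0.24, adjusted p = 0.97), with a 95% interval from -0.47 to 0.52, and without NXT-Exo 1 it was -0.03. For miR-152-3p it was 0.09 (SE 0.23, adjusted p = 0.919), with an interval from -0.38 to 0.57. For miR-148b-3p it was -0.21 (SE 0.23, adjusted p = 0.815), with an interval from -0.69 to 0.26. As fold changes, the 3 intervals ran from 0.724 to 1.43, from 0.767 to 1.48 and from 0.622 to 1.20. These intervals hold only under the stated assumption, since the spread between control libraries was not measured here.

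miR-148a-5p had a log2 fold change of 0.12 (SE 0.30, adjusted p = 0.919) and an interval from -0.49 to 0.74. For miR-148b-5p the log2 fold change was -0.34 (SE 0.62, adjusted p = 0.881), and its interval from -1.60 to 0.93 included a 2-fold decrease. Added up, the 5 members reached 16926 CPM in Ctl-Exo 5 and a mean of 17259 ± 1324 CPM (SD, n = 5) over NXT-Exo.

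**Figure D2:**
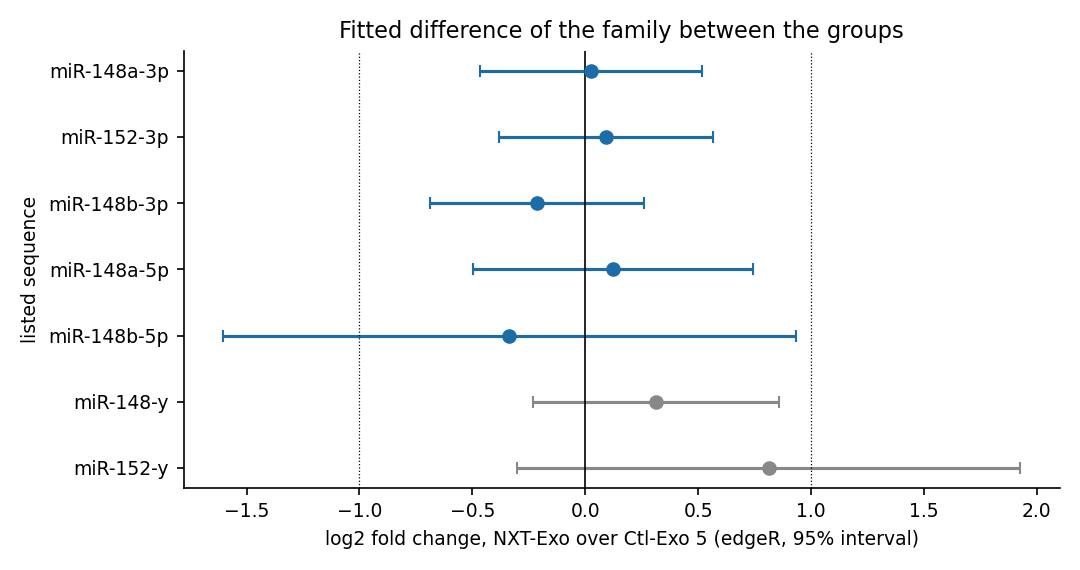
Fitted log2 fold change of NXT-Exo over Ctl-Exo 5 (edgeR, 95% interval) for the 5 family members (blue) and for the longer sequences miR-148-y and miR-152-y (grey), with dotted lines at a 2-fold change. The interval of every sequence shown includes 0, from -0.47 to 0.52 for miR-148a-3p and from -0.30 to 1.93 for miR-152-y.

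The position of the control library gave the same picture without a model. Ctl-Exo 5 was above all 5 NXT-Exo libraries for 1 of the 5 members, miR-148b-5p, where 15.3% of all sequences with reads had this position. It was below all 5 for 0 of the 5 members, where 15.0% of all sequences had this position. Of the 467 sequences with a mean of at least 10 reads, which include all 5 members, it was above all 5 for 74 and below all 5 for 101. With reads scaled to the listed total in place of TMM, miR-148b-3p was also highest in the control library. The median log2 difference of levels, taken as log2(mean CPM + 1) of NXT-Exo minus log2(CPM + 1) of Ctl-Exo 5, was 0.03 over the 5 members, 0.16 over the 865 sequences and 0.03 over the 467 sequences with a mean of at least 10 reads.

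Among the NXT-Exo libraries, the levels of the abundant members varied little. The SD of log2(CPM + 1) was 0.13 for miR-148a-3p, 0.15 for miR-148b-3p, 0.19 for miR-152-3p and 0.30 for miR-148a-5p. The median SD over the 229 sequences with a mean of at least 100 reads was 0.22, with quartiles of 0.165 and 0.305. Between these quartiles lay miR-152-3p and miR-148a-5p. For miR-148a-3p the coefficient of variation was 8.93%, whereas counting error alone would give 0.533%. For miR-152-3p these values were 13.9% and 1.60%, for miR-148b-3p 11.1% and 3.63%, and for miR-148a-5p 21.7% and 6.03%. The spread of these members was thus larger than counting error. For miR-148b-5p the coefficient of variation of 14.4% was below the 21.6% from counting error.

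Shares within a library need no scaling, because both parts are read in the same library. The 3p arm held 99.5%, 99.2%, 99.2%, 99.0% and 99.3% of the miR-148a reads in NXT-Exo 1 to 5 and 99.3% in Ctl-Exo 5. Written as a ratio, there were 96.0 to 203 reads of miR-148a-3p for each read of miR-148a-5p in NXT-Exo, and 144 in Ctl-Exo 5. The ends of this range were NXT-Exo 1 with the lowest share of the 5p arm (0.489%) and NXT-Exo 4 with the highest (1.03%). Their Wilson intervals for the 3p share, 99.4% to 99.6% and 98.8% to 99.1%, did not overlap, and the control library lay between them. NXT-Exo 1 thus had both the highest miR-148a-3p and the lowest miR-148a-5p of the NXT-Exo libraries.

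The miR-148b precursor was less one-sided. Its 3p arm held 97.0% of the reads in Ctl-Exo 5 and a mean of 97.3% ± 0.29 (SD, n = 5) over NXT-Exo. In the control library the Wilson interval was 95.5% to 98.1%, and all 5 NXT-Exo libraries, at 96.9% to 97.6%, lay inside it. In every library the 3p share was lower for miR-148b than for miR-148a.

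Of the reads of the 3p members, miR-148a-3p took 88.6% ± 1.51 (SD, n = 5) in NXT-Exo and 88.8% in Ctl-Exo 5. The share of miR-152-3p was 7.72%, 9.12%, 9.09%, 11.7% and 9.65% in NXT-Exo 1 to 5 and 9.00% in Ctl-Exo 5. NXT-Exo 1 and NXT-Exo 4 again stood at the ends, and their Wilson intervals (7.51% to 7.94% and 11.3% to 12.1%) did not overlap with those of the other libraries. This share and that of the miR-148a 5p arm are not independent, because miR-148a-3p holds most of the reads that each is taken of. miR-148b-3p took 1.90% ± 0.27 (SD, n = 5) in NXT-Exo and 2.23% in Ctl-Exo 5. The control library was above NXT-Exo 1, 2, 4 and 5 and below NXT-Exo 3 with 2.32%.

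The table also listed 4 sequences under names without the rat prefix that have the 3p seed of the family. They are shown because each is a copy of a 3p member with another 3′ end.
miR-148-y: tCAGTGCActacagaactttgtt
miR-152-y: tCAGTGCAtgacagaacttggga
miR-148-z: tCAGTGCAtgacagaacttggtt
miR-152-z: tCAGTGCAtgacagaactttt
miR-148-y is the whole of miR-148a-3p with 2 added bases, and its first 22 of 23 bases were found in the Mir148a hairpin. miR-152-y and miR-148-z both contain the whole of miR-152-3p with 2 added bases, so that miR-148-z, despite its name, matched miR-152-3p. miR-152-z shares 19 bases with the start of miR-152-3p and differs from it by G20T and G21T. Together these sequences made up 1.37% to 2.24% of the reads with the family's seeds over NXT-Exo, and 1.57% in the control library.

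miR-148-y, the most abundant of them, had 245, 327, 361, 251 and 381 CPM in NXT-Exo 1 to 5 and 252 CPM in Ctl-Exo 5. By the Wilson intervals it was lower than miR-148b-3p in NXT-Exo 1, NXT-Exo 4 and Ctl-Exo 5 and higher in NXT-Exo 5, while the intervals overlapped in NXT-Exo 2 and NXT-Exo 3. Its share of the reads of miR-148-y and miR-148a-3p was 1.39%, 2.32%, 2.39%, 1.69% and 2.39% in NXT-Exo 1 to 5 and 1.66% in Ctl-Exo 5. The NXT-Exo libraries formed no single level. NXT-Exo 2, 3 and 5 were above the control library with Wilson intervals that did not overlap with its interval of 1.52% to 1.82%, NXT-Exo 4 lay within it and NXT-Exo 1 was below it. The fitted log2 fold change of miR-148-y was 0.31 (SE 0.27, adjusted p = 0.815).

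miR-152-y had 61, 59, 48, 35 and 56 reads in NXT-Exo 1 to 5 and 21 reads in Ctl-Exo 5. Its level was 11.4 CPM in Ctl-Exo 5 and 14.6 to 27.4 CPM in NXT-Exo. The NXT-Exo mean was 20.3 ± 4.75 CPM (SD, n = 5), and all 5 NXT-Exo libraries were above the control library. This position was common, since Ctl-Exo 5 was also below all NXT-Exo libraries for 15.0% of the 865 sequences. Of the 467 sequences averaging 10 reads or more, miR-152-y included, 101 had it. The log2 fold change of miR-152-y, 0.81 (SE 0.54, adjusted p = 0.815), did not pass the test, and its interval ran from -0.30 to 1.93. As a share of the reads of miR-152-y and miR-152-3p, it was 1.25% ± 0.23 (SD, n = 5) in NXT-Exo and 0.750% in Ctl-Exo 5. NXT-Exo 5 with 0.856% lay inside the Wilson interval of the control library, 0.491% to 1.14%, and the levels of the others were above it, but the intervals of all 5 NXT-Exo libraries overlapped with that of the control library.

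The remaining sequences were close to the floor of 3 reads, which is 1.63 CPM in Ctl-Exo 5 and 0.782 to 2.35 CPM in the NXT-Exo libraries. miR-148-z had 4, 9, 1, 6 and 2 reads in NXT-Exo 1 to 5 and 5 reads in Ctl-Exo 5. miR-152-z had 7 reads in Ctl-Exo 5, 1 read in NXT-Exo 4 and 0 reads in the other NXT-Exo libraries. Its unadjusted p in edgeR was 0.0344 and its adjusted p was 0.815.

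**Figure D3:**
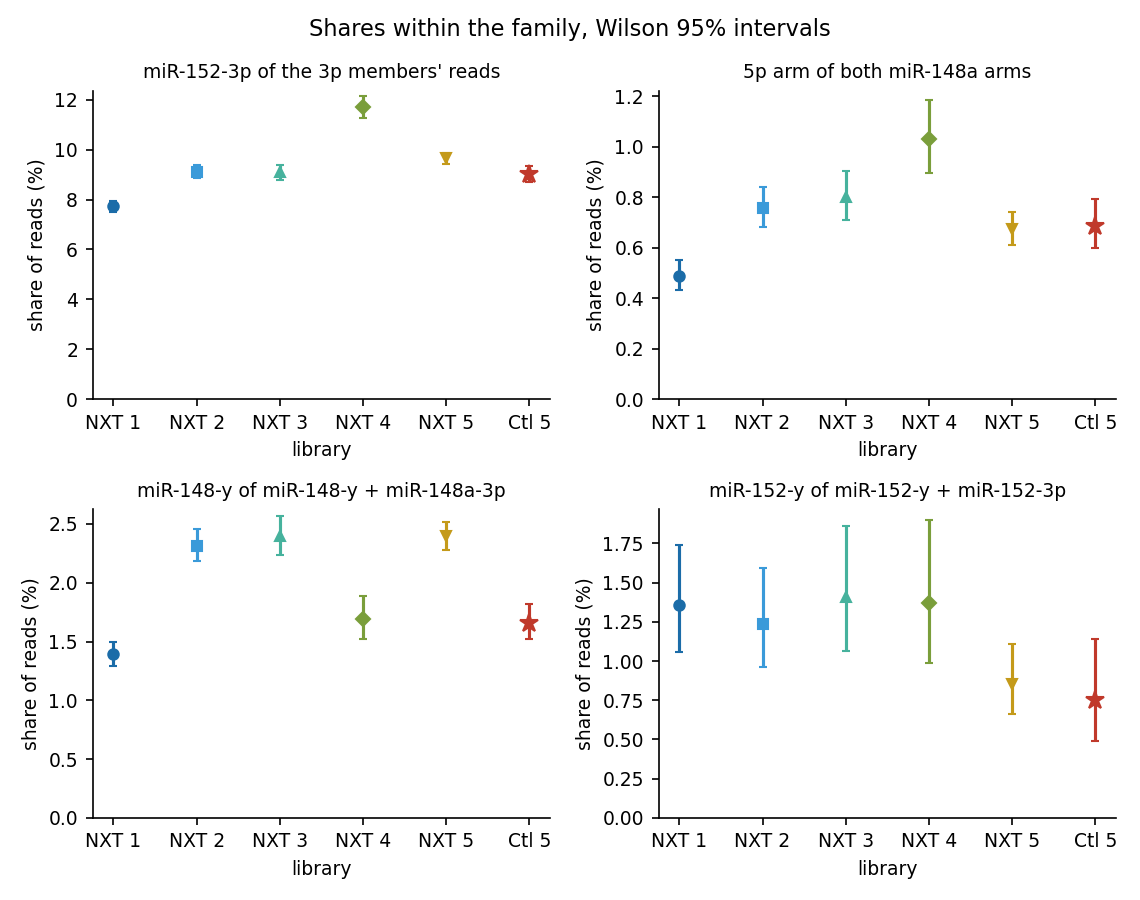
Share of reads (%) in each library with Wilson 95% intervals for miR-152-3p among the 3p members, the 5p arm among both miR-148a arms, miR-148-y with miR-148a-3p, and miR-152-y with miR-152-3p. In the upper panels NXT-Exo 1 is lowest (7.72% and 0.489%) and NXT-Exo 4 highest (11.7% and 1.03%), with Ctl-Exo 5 between them, and in the last panel Ctl-Exo 5 is lowest (0.750%).

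The sequences whose profile over the 6 libraries was most like that of miR-148a-3p were sought among 224 sequences outside the family with a mean of at least 100 reads, by the Pearson correlation of log2(CPM + 1). The highest values were 0.95 for miR-676, 0.93 for miR-27a-5p and 0.88 for miR-122-5p (Spearman's rho 0.83, 0.89 and 0.66), as the top of a ranking over 6 libraries and therefore without a p-value. Over all 224 sequences the median correlation was -0.12. Without NXT-Exo 1 and NXT-Exo 2, the libraries farthest from the median of miR-148a-3p, the correlations were 0.89, 0.33 and 0.65, and without NXT-Exo 1 alone they were 0.96, 0.73 and 0.47. Without Ctl-Exo 5 the correlations were 0.95, 0.97 and 0.97. Those of miR-27a-5p and miR-122-5p thus depended more on the libraries included than that of miR-676, but so few libraries cannot set them firmly apart. miR-122-5p, the most abundant hepatocyte miRNA, had 17384 CPM in NXT-Exo 1, 3294 to 6430 CPM in NXT-Exo 2 to 5 and 2195 CPM in Ctl-Exo 5. In NXT-Exo 1 miR-122-5p and miR-148a-3p were thus at nearly the same level, whereas in Ctl-Exo 5 miR-148a-3p was far higher. For the other family members that averaged 100 reads or more, the correlations with miR-148a-3p were -0.09 for miR-152-3p, -0.17 for miR-148b-3p and -0.62 for miR-148a-5p. Without NXT-Exo 1 they were 0.35, 0.32 and -0.13, and without NXT-Exo 4 that of miR-152-3p was 0.25, so neither the signs for miR-152-3p and miR-148b-3p nor the size for miR-148a-5p was stable to the loss of 1 library.

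**Figure D4:**
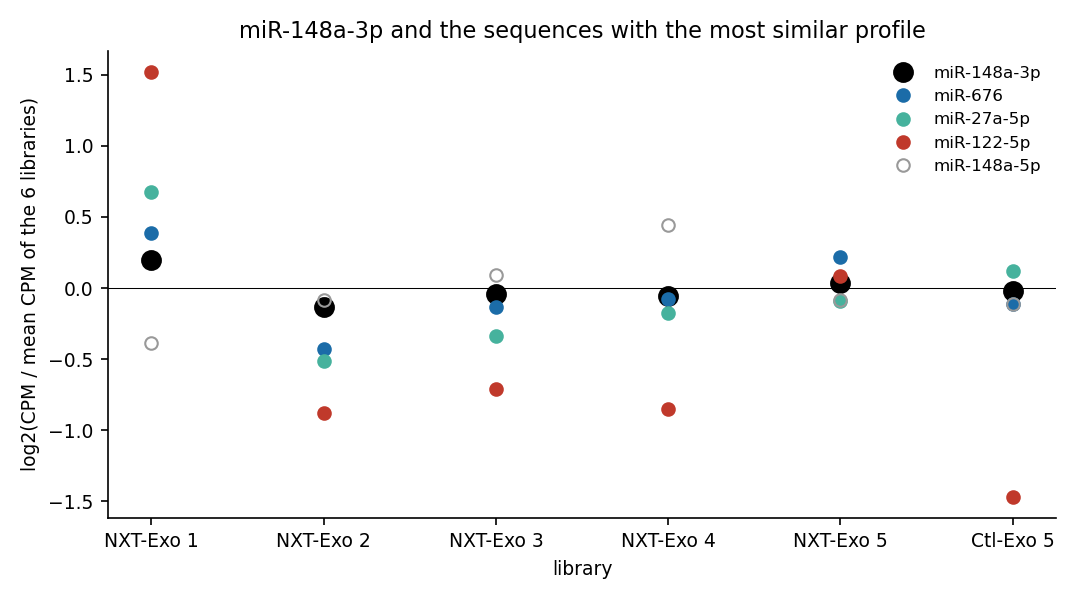
log2 of CPM over the mean CPM of the 6 libraries for miR-148a-3p, for the sequences with the most similar profile and for miR-148a-5p. NXT-Exo 1 is the highest library for miR-148a-3p (17367 CPM) and miR-122-5p (17384 CPM) and the lowest for miR-148a-5p (85.3 CPM).

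Other miRNAs known for targets in cholesterol transport or among DNA methyltransferases were taken as lists. These lists are not confined to the targets named above for the family. Of 14 miRNAs known for targeting the low-density lipoprotein receptor, ABCA1 or the lipoprotein receptor SR-B1, 0 passed the test in either direction, where the background is again 0%. By the log2 difference of levels, 4 were higher and 10 lower in NXT-Exo, and the median was -0.16. Over the 467 sequences with a mean of at least 10 reads, 54.2% were higher and 45.8% lower, and over all 865 sequences 61.0% and 39.0%. One of the 4, miR-33-5p, named after its values were seen, had reads in NXT-Exo 2 and NXT-Exo 5 alone, at no more than 2.71 CPM. Ctl-Exo 5 was above all NXT-Exo libraries for 5 of the 14, beside the 15.3% of all sequences. The most abundant in this list, miR-26a-5p, had 74335 CPM in Ctl-Exo 5 and a mean of 70442 ± 8055 CPM (SD, n = 5) over NXT-Exo. Of 8 other miRNAs known for targeting DNA methyltransferases, such as the miR-29 family, 0 passed in either direction, 2 were higher and 6 lower, the median was also -0.16, and Ctl-Exo 5 was above all NXT-Exo libraries for 1 of them. The most abundant of these, miR-143-3p, had 11639 CPM in Ctl-Exo 5 and a mean of 9628 ± 1983 CPM (SD, n = 5) over NXT-Exo. The lists share miR-185-5p, and the first also holds miR-144-3p of the red blood cell miRNAs and miR-223-3p, a miRNA of platelets and myeloid cells.

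The family was also set beside miRNAs of other blood and tissue cells, of which 0 passed the test. Of 5 platelet and myeloid miRNAs, 2 were higher and 3 lower in NXT-Exo by level, where 61.0% of all 865 sequences were higher. Both arms of miR-126a were higher, with log2 differences of 0.065 and 0.059, while miR-223-3p, miR-142-3p and miR-142-5p had -0.42, -0.20 and -0.24. Ctl-Exo 5 was above all NXT-Exo libraries for 2 of the 5, miR-223-3p and miR-142-5p, beside 15.3% of all sequences. The most abundant, miR-142-5p, had 20887 CPM in the control library and 17700 ± 1290 CPM (SD, n = 5) over NXT-Exo. Of 5 muscle miRNAs, 3 were higher and 2 lower, and the most abundant, miR-206-3p, had 45.2 CPM in the control library and 69.6 ± 30.2 CPM (SD, n = 5) over NXT-Exo. Ctl-Exo 5 was below all NXT-Exo libraries for 2 of the 5, miR-133a-3p and miR-133b-3p, beside 15.0% of all sequences. It was above all of them for 1, miR-1-3p, beside 15.3%. The most abundant red blood cell miRNA, miR-486, had 207541 CPM in the control library and 211313 ± 37784 CPM (SD, n = 5) over NXT-Exo. The 3 hepatocyte miRNAs were all higher in NXT-Exo by mean level. However, Ctl-Exo 5 was below all NXT-Exo libraries for miR-122-5p alone, beside 15.0% of all sequences. miR-122-3p in NXT-Exo 4 (5.47 CPM) was below the control library (7.62 CPM). miR-802-5p had 0 CPM in Ctl-Exo 5 and NXT-Exo 2 and at most 5.40 CPM elsewhere. The part of these sets of miRNAs in the levels of the family was not tested.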

How the data were processed

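Per the labels, total RNA of serum exosomes was made into libraries with the TruSeq Small RNA kit and sequenced on an Illumina HiSeq instrument, and ACGT101-miR removed adapter dimers, low-complexity reads, repeats and other RNA families. For each miRNA sequence the authors gave an unscaled read count and a column headed TPM. The deposited TPM was found to be an RPM value, since within a library it was a fixed multiple of the count and took no account of length, and 0 reads were written as 0.01. The submitters' processing notes name Rnor_6.0. The aligner and the miRNA database release are not given in the sources used here. The table holds 8 further columns, headed as counts and TPM of Ctl-Exo 1 to 4. The sample labels used here name no such samples, so these columns entered no step.

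Counts were fitted with edgeR 4.0.16 (TMM, glmQLFit, glmQLFTest) in R 4.3.3 over 865 sequences with at least 1 read, with Benjamini-Hochberg adjustment over all of them. SEs were taken as the log2 fold change divided by the root of F. Alternatives were DESeq2 1.42.0, limma 3.58.1, median-of-ratios factors, scaling to the listed total, the deposited TPM, a mean of at least 10 reads, other pseudocounts, other averages over NXT-Exo, and leaving out each NXT-Exo library. Shares have Wilson 95% intervals. Other steps used Python 3.11.15, pandas 2.3.3, scipy 1.17.1 and matplotlib 3.10.9.

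Named are all members, other sequences with a member's bases 2 to 8, the 3 profiles most like the most abundant member, and the most abundant miRNA of each list of targets or cell type markers. Members and lists were chosen with earlier results of these data known.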

Additional observations from a re-analysis of the deposited data

Results flagged for a closer look

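The 5 NXT-Exo values were looked at for 20 quantities, and for 4 of these the highest or lowest library lay apart by over 0.71 of the range. Chance flags about 1 in 20, but the count is not to be read against it, because 2 of the 4 are sequences named for their likeness to miR-148a-3p and 1 is a single read. miR-148b-3p was high in NXT-Exo 3, with 387 CPM while NXT-Exo 1, 2, 4 and 5 had 298 to 314 CPM, which made its distance to the nearest 0.821 of the range. With median-of-ratios factors this gap was 0.844 of the range. With the deposited TPM no such gap was present, since the widest gap was 0.467 of the range and lay at NXT-Exo 2. The gap of miR-152-z was 1 of the range, which is the single read in NXT-Exo 4. Outside the family, NXT-Exo 1 stood apart for miR-122-5p (a gap of 0.777) and for miR-27a-5p (158 CPM against 69.3 to 92.8 CPM, a gap of 0.735).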

How the results depend on the processing

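No paired analysis was possible because 5 is the only replicate number that NXT-Exo and Ctl-Exo have in common. Ctl-Exo 5 was the only control library analysed and was not left out, since no comparison would then remain. The columns headed Ctl-Exo 1 to 4 were not analysed here.

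Of 50 fold changes of the members under the alternatives, 49 kept their direction and none passed the test, with adjusted p-values of 0.811 to 0.997. Without NXT-Exo replicate 1, which had the highest level, the log2 fold change of miR-148a-3p turned from 0.0265 to -0.0259, and with 1 library left out at a time it ranged from -0.0259 to 0.0648. The number of sequences called was then 0 to 1, and the 1, without NXT-Exo replicate 2, was miR-122-5p. All 60 level differences and all 52 shares moved by less than the SD of NXT-Exo. Leaving out 1 library or taking a median can hardly move a value by more than this, so for those alternatives it is no sign of stability. The level difference of miR-148a-3p changed sign, from 0.0264 to -0.0184 with the median of NXT-Exo and to -0.0259 without NXT-Exo replicate 1. That of miR-152-3p went from 0.0921 to -0.0025 with the median of NXT-Exo.

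Ctl-Exo 5 was above all NXT-Exo libraries for 132 sequences, and for 74 when those averaging under 10 reads were dropped, since fewer were then counted. Within the family it was above all for 1 member. Scaling to the listed total made this 2, with miR-148b-3p added, and leaving out single libraries gave 1 to 2, with 2 without NXT-Exo replicate 3. It was below all for 0 to 1 members, with 1 (miR-148a-5p) without NXT-Exo replicate 1.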

Other observations

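How far an NXT-Exo library stands apart depended on the scale, a comparison chosen after seeing the data. For miR-148a-5p, NXT-Exo 4 was farther from the others with the deposited TPM (146 against 95.5 in the next library, a gap of 0.739 of the range) than with TMM-scaled CPM (152 against 119, a gap of 0.490). For miR-148b-3p the library changed as well. Its widest gap lay at NXT-Exo 3 by TMM-scaled CPM (0.821) and by median-of-ratios CPM (0.844), and at NXT-Exo 2 by CPM of the listed total (0.355). The shares of reads within the family do not depend on this choice, and they placed NXT-Exo 1 and NXT-Exo 4 at opposite ends for the 5p arm of miR-148a and for miR-152-3p. These shares are not independent, since miR-148a-3p holds most of the reads that each is taken of.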
